A study of Rattus norvegicus with 12 samples.

Results

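SIRMu-1 and rMC-1 are immortal rat cell lines kept as models of the Müller cell, the glial cell that spans the retina, and here every gene counted in 5 SIRMu-1 libraries was compared with the same gene in 3 rMC-1 libraries. These 8 libraries were taken by their labels from a series of 12, whose other 4 libraries came from primary Müller cell cultures. Each library holds read counts for 17315 genes, of which 11321 passed the filter on low counts and were tested and 5994 were not.

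The SIRMu-1 libraries were cultures of a line that arose by spontaneous immortalization of Müller cells from Sprague-Dawley rats of postnatal day 2-4. They were taken at passage 6 (replicate 1), 11 (replicates 2 to 4) and 20 (replicate 5). They were grown in 20% fetal bovine serum, and replicates 3 and 5 also had gentamicin at 87 mg/L and amphotericin B at 2.2 mg/L. The rMC-1 libraries were cultures of a line from adult Sprague-Dawley rats, at passages 23, 26 and 26, in 10% serum with neither drug. As background, rMC-1 owes its immortality to the large T antigen of SV40, a viral protein that binds Rb and other host proteins that restrain the cell cycle; its transcript was not analysed here. The primary cultures, shown for reference, came from Sprague-Dawley rats of the same postnatal age as SIRMu-1. They were at passage 3 or 4 in 20% serum with both drugs at the same doses, so only SIRMu-1 replicates 3 and 5 match them in medium. All 12 cultures had 25 mM glucose, and the labels name no further treatment. Line, donor age, passage, serum and route of immortalization differ together, so their parts in any difference cannot be told apart. All libraries of a line come from that 1 line. The p-values and standard errors therefore measure the spread between cultures, which may in part be technical, and do not extend to other lines. That spread was estimated over all 12 libraries, so the primary cultures enter it too.

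Müller cells take up glutamate through Slc1a3 (GLAST) and convert it to glutamine with Glul (glutamine synthetase). They buffer potassium and water through Kcnj10 and Aqp4, and handle retinoids with Rlbp1. In the retina they keep transcription factors of the retinal progenitor, among them Sox2, Sox9, Pax6 and Lhx2, and in injury they can resume a progenitor state in some vertebrates. In culture, Müller cells lose several of these traits and take on features of a matrix-producing mesenchymal cell.

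The SIRMu-1 libraries held 26349346 to 36730443 counts in genes and the rMC-1 libraries 27351014 to 38125630. In SIRMu-1 13.72% to 18.19% of the gene counts fell on the 10 genes with most counts, in rMC-1 4.01% to 4.31%. Normalization factors (TMM, which rescale libraries so that most genes do not differ) were 0.865 to 1.002 and 1.255 to 1.284. Levels below are read counts scaled to a common library size (CPM) on that scale, given in the order of the replicate numbers. Differences are fitted log2 fold changes, SIRMu-1 minus rMC-1, ± their standard error, and a gene was called when its edgeR adjusted p was under 0.05. Where a line had no count, the fold is a lower bound against a floor of 3 counts over that line. Bulk counts do not tell fewer cells of a type from less RNA per cell.

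Most tested genes differed between the lines. Of 11321 genes, 7157 were called (63.2%), 3702 higher in SIRMu-1 (32.7%) and 3455 higher in rMC-1 (30.5%). With a minimum difference of 2-fold in the test itself, 2786 genes were called (24.6%), 1600 of them higher in SIRMu-1 (14.1%) and 1186 in rMC-1 (10.5%). The groups did not overlap in CPM for 7130 genes (63.0%), with SIRMu-1 above in 3623 (32.0%) and rMC-1 above in 3507 (31.0%). Many genes named below were chosen for large differences, so their lack of overlap follows in part from that choice. Fitted differences of over 8-fold were seen in 1005 genes called higher in SIRMu-1 and in 487 called higher in rMC-1. The median log2 fold change over all tested genes was 0.03. When libraries were scaled by their total counts instead, that median moved by -0.433 to -0.403, and 2324 genes were called higher in SIRMu-1 against 5227 in rMC-1, so the balance of the directions depends on the scaling.

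**Figure D1:**
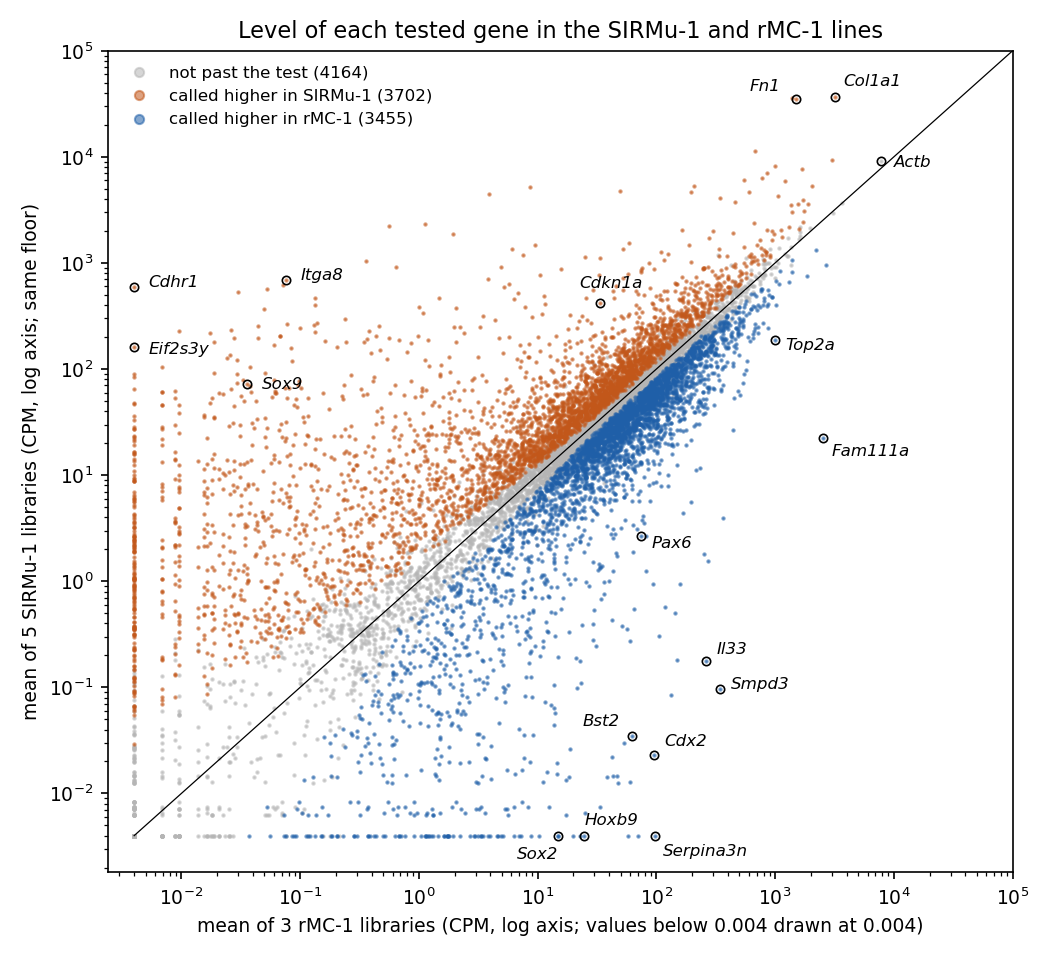
Mean CPM of each of 11321 tested genes in the 5 SIRMu-1 libraries (vertical, log axis) and the 3 rMC-1 libraries (horizontal, log axis), each point a gene, coloured by its call. Matrix genes such as Col1a1 and Fn1 lie at the upper right above the diagonal, genes with no count in rMC-1 (Cdhr1, Eif2s3y) lie on the left edge, and genes with no count in SIRMu-1 (Serpina3n, Hoxb9, Sox2) lie on the lower edge.

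Müller cell markers differed between the lines about as often as other genes and in both directions. Of 28 listed markers 24 were tested, 8 higher in SIRMu-1, 7 higher in rMC-1 and 9 not past the test. The share called was 62.5% against 63.2% of all tested genes, and the median log2 fold change -0.03 against 0.03. Sox9, a transcription factor of glial cells and progenitors, stood at 66.6, 84.3, 107, 78.4 and 22 CPM in SIRMu-1 and at 0.0285, 0 and 0.079 CPM in rMC-1, where 4 counts were found in all (edgeR adjusted p = 1.08e-06). Dkk3, a secreted glycoprotein abundant in Müller cells, was at 310 to 442 CPM in SIRMu-1 and at 2.34, 0.309 and 0.342 CPM in rMC-1 (edgeR adjusted p = 2.07e-06). Vim, the intermediate filament vimentin, was higher in SIRMu-1 by 1.37 ± 0.16 (edgeR adjusted p = 2.06e-05). None of the 3 overlapped between the lines.

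Markers higher in rMC-1 included Sox2, Lhx2, Notch1 and Slc1a3. Sox2, a factor that Müller cells need to keep their progenitor character, had no count in any SIRMu-1 library and stood at 18.0, 11.9 and 14.7 CPM in rMC-1, at least 684-fold higher (edgeR adjusted p = 0.00062). The glutamate transporter Slc1a3 was at 17.9 to 27.8 CPM in SIRMu-1 and 43.4 to 71.7 CPM in rMC-1, a fitted difference of -1.27 ± 0.32 (edgeR adjusted p = 0.00428; 0.098 when libraries sharing a code in the file name were summed). Glul did not differ past the test: it was at 56.8 ± 18.2 CPM (SD, n = 5) and 54.8 ± 4.62 CPM (SD, n = 3), with an edgeR adjusted p of 0.911. Markers of retinoid, water, carbonate and potassium handling were scarce or absent in both lines. Rlbp1 reached at most 0.23 CPM in SIRMu-1 and 1.25 CPM in rMC-1, Aqp4 and Car2 had no count in either line, and Kcnj10 had 0 counts in SIRMu-1 and 9 in rMC-1.

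Genes of the retinal progenitor and of the eye field, the embryonic tissue that forms the retina, differed in both directions. Of 16 tested genes of that list 6 were higher in rMC-1 and 3 in SIRMu-1, with 56.2% called against 63.2% of all tested genes and a median log2 fold change of -0.64. Pax6, the regulator of eye formation, stood at 1.42, 1.6, 1.98, 2.83 and 5.51 CPM in SIRMu-1 and at 67.4, 82.6 and 74.5 CPM in rMC-1, a fitted difference of -4.81 ± 0.74 (edgeR adjusted p = 0.000151). Lhx2, which specifies the eye field and is kept in Müller cells, was at 0.944 to 4.28 CPM and 38.6 to 49.5 CPM (-4.02 ± 0.53, edgeR adjusted p = 5.3e-05). Six3, another eye field factor, was at 0.107 to 1.46 CPM and 11.0 to 14.8 CPM (edgeR adjusted p = 0.000692). Tbx2, which patterns the dorsal eye, and Sox11, a factor of neural progenitors, went the other way. Tbx2 was at 1.89 to 3.97 CPM in SIRMu-1 and 0.0263 to 0.103 CPM in rMC-1 (5.46 ± 0.66, edgeR adjusted p = 2.53e-05), and Sox11 at 22.4 to 45.9 CPM against 0.342 to 3.65 CPM (4.37 ± 0.84, edgeR adjusted p = 0.000752). The lines did not overlap for any of these 5 genes. Levels in the primary cultures averaged 10.6 CPM for Pax6, 3.77 CPM for Lhx2, 2.11 CPM for Six3, 8.92 CPM for Tbx2 and 10.3 CPM for Sox11.

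Listed transcription factors of cranial and periocular mesenchyme, the neural crest-derived tissue around the eye, were more often higher in SIRMu-1 than in rMC-1. Of 25 tested members of that list 15 were higher in SIRMu-1 and 2 in rMC-1, with a median log2 fold change of 2.02. That is 68% called against 63.2% of all tested genes. Alx1, a homeobox factor of craniofacial mesenchyme, stood at 42.9 to 55.6 CPM in SIRMu-1 and had no count in rMC-1, at least 1933-fold higher (edgeR adjusted p = 0.00153). Its relative Alx4 was at 6.59 to 13.1 CPM against no count, at least 443-fold higher (edgeR adjusted p = 1.92e-06). Prrx1, a marker of mesenchyme, was at 32.7 to 71.3 CPM against 0.0285 to 0.124 CPM (9.29 ± 0.62, edgeR adjusted p = 3.89e-07). The primary cultures also held these genes, at 14.4 CPM for Alx1, 25.4 CPM for Alx4 and 102 CPM for Prrx1 on average. Twist1, a regulator of mesenchymal fate, differed less, by 1.38 ± 0.23 (edgeR adjusted p = 0.000317).

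Several HOX genes were present in rMC-1 and at or near 0 counts in SIRMu-1. They encode the factors that give position along the body axis and are largely silent in the anterior head. Of 25 HOX genes with a row in the files, 19 had no count in SIRMu-1 and 8 had none in rMC-1. The filter on low counts passed 10, largely through their level in rMC-1, so no count or median over the tested HOX genes is given. Hoxb9 stood at 24.2, 25.7 and 24.1 CPM in rMC-1 and had no count in SIRMu-1, at least 1165-fold higher (edgeR adjusted p = 1.2e-05). Hoxc10 was at 7.58 to 9.40 CPM against no count, at least 415-fold higher, and Hoxc9 at 4.08 to 4.90 CPM against no count, at least 215-fold higher (edgeR adjusted p of 4.16e-05 and 1.36e-05). Hoxc4 had 3033 counts in rMC-1 and 1 in SIRMu-1, a ratio of 3521 (95% exact counting interval 632 to 139130). The genes present in rMC-1 belonged to the Hoxa, Hoxb and Hoxc clusters. No Hoxd gene in the files had over 2 counts in rMC-1.

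Single regulators of other tissues were present in one line alone in both directions, and the genes given here are examples rather than a counted list. Cdx2, an intestinal and caudal homeobox factor picked after its values were seen, stood at 96.5, 89.5 and 97.8 CPM in rMC-1 and had 3 counts in all of SIRMu-1, a ratio of 4430 (95% exact counting interval 1515 to 21483). Gata4, a factor of heart and endoderm, was at 14.0 to 15.8 CPM against no count, at least 706-fold higher (edgeR adjusted p = 4.54e-06). Grhl2, a regulator of epithelial identity, was at 9.09 to 17.5 CPM against 0.0329 to 0.0826 CPM (-7.83 ± 0.39, edgeR adjusted p = 6.31e-07). Sall1, a zinc finger factor of kidney and limb, also picked after its values were seen, was at 28.7 to 36.2 CPM against 1 count in all. On the SIRMu-1 side Tbx1, a factor of the pharyngeal arches, was at 30.2 to 35.4 CPM with no count in rMC-1, at least 1327-fold higher (edgeR adjusted p = 1.94e-06). Emx2, a homeobox factor of forebrain and urogenital tissue, was at 21.2 to 30 CPM with no count in rMC-1 (edgeR adjusted p = 1.07e-06). Tbx1 and Emx2 were also picked after their values were seen. In the primary cultures Hoxb9 had no count, Cdx2, Gata4 and Tbx1 averaged 0.0192, 0.0523 and 0.0858 CPM, and Emx2 averaged 19.9 CPM.

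**Figure D2:**
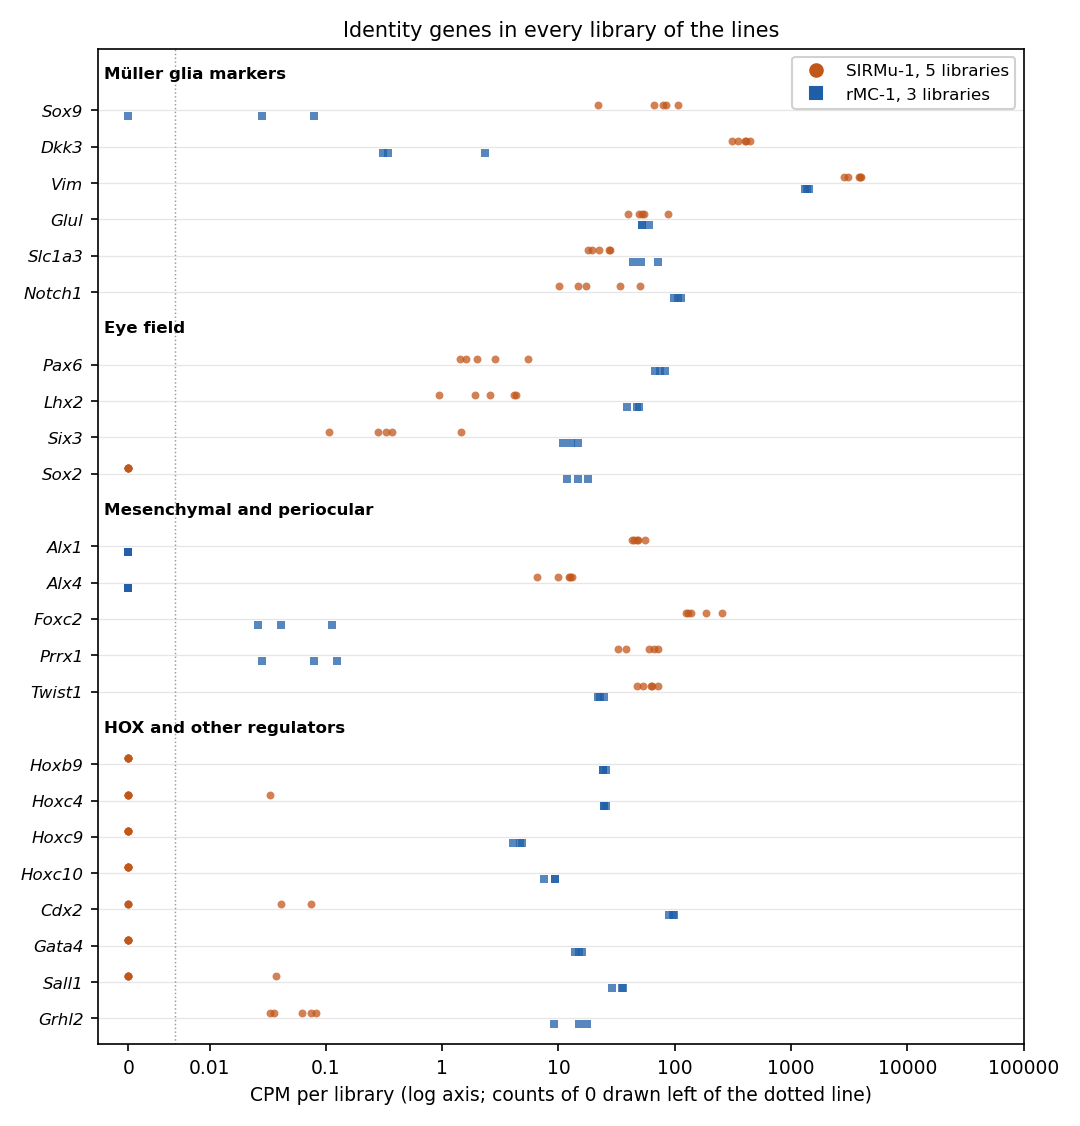
CPM in each SIRMu-1 library (circles) and each rMC-1 library (squares) for markers of Müller cells, the eye field, mesenchyme and posterior or epithelial identity, on a log axis with counts of 0 drawn at the left. Sox9, Dkk3 and the mesenchymal factors lie to the right in SIRMu-1, the eye field, HOX and other regulators drawn lie to the right in rMC-1, and only Glul overlaps.

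Genes fully on in one line and without a single count in the other were found in both directions. There were 25 genes of at least 10 CPM in SIRMu-1 with 0 counts in all rMC-1 libraries, and 9 of the reverse. The first count rose to 38 without rMC-1 replicate 1 and to 40 without rMC-1 replicate 2, as 0 is then asked of fewer libraries. Of the 25, 23 reached at least 1 CPM on average in the primary cultures, and of the 9, 3 did. For scale, each primary library had 10057 to 10629 of the 17315 counted genes at 1 CPM or more, and 11321 were tested. Whether the 25 or the 9 depart from that background was not tested. Serpina3n, a serine protease inhibitor of reactive glia, stood at 93.4, 97.0 and 99.4 CPM in rMC-1, at least 4552-fold higher. Tspan8, a tetraspanin of epithelia, was at 60.2 to 83.7 CPM, at least 3269-fold higher. On the SIRMu-1 side Cdhr1, a cadherin-related protein of photoreceptors, stood at 977, 9.85, 1115, 731 and 141 CPM, at least 23199-fold higher on average. Its SIRMu-1 libraries spanned 6.81 on the log2 scale, with replicates 2 and 5 lowest.

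The Y-linked gene Eif2s3y was on in one line alone. It stood at 124 to 217 CPM in the 5 SIRMu-1 libraries and had no count in the 3 rMC-1 libraries, at least 6442-fold higher (edgeR adjusted p = 0.00017). The other listed genes of the Y chromosome were too low to test or had no row, so among genes that can be placed the call rests on 1. A row named Ddx3 had the same pattern, at 150 to 244 CPM against 0 to 0.0824 CPM (edgeR adjusted p = 3.65e-05), but that symbol can stand for the Y-linked Ddx3y or for a copy elsewhere, and which was counted is uncertain. The labels give no sex for either line.

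Genes of the mitosis and DNA replication lists were higher in rMC-1 almost without exception. All 23 mitosis genes with a row were tested and 22 were higher in rMC-1, with a median log2 fold change of -2.01. Of 25 tested genes of DNA replication and the G1/S step 23 were higher in rMC-1, with a median of -2.40, and of 23 tested genes of DNA repair 18 were higher in rMC-1 and 2 in SIRMu-1, with a median of -1.49. No mitosis or replication gene was called higher in SIRMu-1. The shares called were 95.7% (mitosis), 92% (replication) and 87% (repair), against 63.2% of all tested genes. The median CPM of the mitosis genes was 58.1, 12.4, 44.5, 66.4 and 58.3 in the SIRMu-1 libraries and 201, 202 and 227 in the rMC-1 libraries. SIRMu-1 replicate 2 was the lowest of its line by this measure, and no SIRMu-1 library reached the rMC-1 level. The primary cultures were below every SIRMu-1 library, at 6.47, 4.75, 4.34 and 3.75 CPM.

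Single genes of the mitosis, replication and repair lists followed the same order. Top2a, the topoisomerase that untangles chromosomes, stood at 200, 41.5, 156, 234 and 310 CPM in SIRMu-1 and at 872, 1067 and 1061 CPM in rMC-1 (-2.41 ± 0.46, edgeR adjusted p = 0.000684). Birc5, the survivin subunit of the chromosomal passenger complex, was at 4.09 to 21.5 CPM against 94.6 to 113 CPM (-2.66 ± 0.39, edgeR adjusted p = 0.000118). Mcm5, a subunit of the replicative helicase, stood at 62, 10.9, 48.8, 73.2 and 72.7 CPM against 441, 431 and 492 CPM (-3.09 ± 0.47, edgeR adjusted p = 0.000154). Cdt1, which loads that helicase on origins, differed by -3.65 ± 0.43 (edgeR adjusted p = 2.12e-05). The repair gene Brca1, which acts in homologous recombination, differed by -3.21 ± 0.32. The lines did not overlap for any of these 5 genes.

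Promoters of genes from these lists are shown here because the lists moved together and share short motifs. The windows run from 250 bases before to 50 bases after the annotated start in RefSeq on build GRCr8. Since the counts were made on rn6, no coordinate was carried over and genes were matched by symbol. In the Mcm5 window (chr19:13488563-13488862, + strand) and the Cdt1 window (chr19:67528999-67529298, + strand) the capitals mark E2F motifs, searched as TTTCCCGC, TTTCGCGC, TTTGCCGC and TTTGGCGC. In the Birc5 window (chr10:103571896-103572195, + strand) and the Top2a window (chr10:84473044-84473343, - strand) they mark the CHR motif TTTGAA of late cell cycle genes. Both strands were searched, and each sequence reads 5′ to 3′ along the gene.
Mcm5: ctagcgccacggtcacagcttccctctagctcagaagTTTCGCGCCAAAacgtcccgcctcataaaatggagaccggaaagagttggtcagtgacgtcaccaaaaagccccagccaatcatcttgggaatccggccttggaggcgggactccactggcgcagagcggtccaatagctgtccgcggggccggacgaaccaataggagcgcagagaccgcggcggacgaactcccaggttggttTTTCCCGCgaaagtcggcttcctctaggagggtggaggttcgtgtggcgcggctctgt
Cdt1: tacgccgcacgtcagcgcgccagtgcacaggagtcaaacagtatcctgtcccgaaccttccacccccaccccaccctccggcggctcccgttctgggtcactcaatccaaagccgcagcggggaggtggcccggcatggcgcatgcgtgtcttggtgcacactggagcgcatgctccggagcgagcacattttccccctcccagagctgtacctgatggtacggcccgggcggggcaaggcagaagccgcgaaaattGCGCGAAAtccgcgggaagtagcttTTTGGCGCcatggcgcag
Birc5: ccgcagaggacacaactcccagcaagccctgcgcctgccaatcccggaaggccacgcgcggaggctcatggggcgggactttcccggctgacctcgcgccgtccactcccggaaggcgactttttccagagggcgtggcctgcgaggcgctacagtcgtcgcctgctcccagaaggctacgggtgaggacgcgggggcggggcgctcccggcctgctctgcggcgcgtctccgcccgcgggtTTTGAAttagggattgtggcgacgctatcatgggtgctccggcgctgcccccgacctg
Top2a: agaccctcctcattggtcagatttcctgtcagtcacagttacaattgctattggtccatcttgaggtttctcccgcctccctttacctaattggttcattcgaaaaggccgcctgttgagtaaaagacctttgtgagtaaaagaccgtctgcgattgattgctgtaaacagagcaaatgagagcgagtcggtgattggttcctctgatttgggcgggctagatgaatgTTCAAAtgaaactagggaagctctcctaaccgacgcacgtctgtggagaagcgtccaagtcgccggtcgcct

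The 3 E2F matches in Mcm5 begin at positions -213, -209 and -8 from the start, the first 2 overlapping, and those in Cdt1 at 8 and 33. The CHR match begins at -8 in Birc5 and at -22 in Top2a. An E2F motif was held by 10 of 18 tested replication genes with a RefSeq promoter (55.6%), against 3.94% of all 8580 tested genes with a promoter. Of 19 mitosis genes 14 held the CHR motif (73.7%), against 11.1%. Replication genes with an E2F motif had a median log2 fold change of -2.35 and those without of -2.47, and mitosis genes with the CHR motif of -1.77 and those without of -2.01. These are medians of few genes, given without a test.

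Regulators of the Rb pathway and of cell cycle checkpoints differed about as often as other genes. Of 21 tested members 7 were higher in SIRMu-1 and 6 in rMC-1, 61.9% called against 63.2% of all tested genes, and the median of 0.05 became -0.38 under scaling by library totals. Rb1 itself was not past the test. Rbl1, which encodes the Rb relative p107 and is itself an E2F target, was higher in rMC-1 (-2.57 ± 0.34, edgeR adjusted p = 4.71e-05). Myc, a driver of growth, was at 12.6 to 24.7 CPM against 88.0 to 115 CPM (-2.33 ± 0.26, edgeR adjusted p = 1.63e-05). Ccnd1, cyclin D1, went the other way, at 450 to 820 CPM against 103 to 210 CPM (2.07 ± 0.37, edgeR adjusted p = 0.000445). Ccnd2, cyclin D2, stood at 21.3, 38.2, 31.5, 32.3 and 36.5 CPM in SIRMu-1 and at 0.114, 0.103 and 0.105 CPM in rMC-1 (8.17 ± 0.28, edgeR adjusted p = 1.16e-08). Cdkn2a, the locus of the inhibitors p16 and p19Arf, was at 24 to 31.7 CPM against 83.1 to 92.2 CPM (edgeR adjusted p = 0.00534; 0.0982 with libraries of a code summed).

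Genes listed as targets of p53, a regulator of arrest and cell death after DNA damage, were not uniform. Of 22 tested members 10 were higher in SIRMu-1 and 7 in rMC-1, or 77.3% called against 63.2% of all tested genes. Their median log2 fold change was 0.59. Cdkn1a, the p21 inhibitor of cyclin-dependent kinases, stood at 463, 670, 406, 337 and 222 CPM in SIRMu-1 and at 32.6, 38.0 and 30.1 CPM in rMC-1 (3.64 ± 0.41, edgeR adjusted p = 1.6e-05). Ccng1, cyclin G1, was at 576 to 1160 CPM against 79.1 to 116 CPM (edgeR adjusted p = 2.16e-06). Aen, a nuclease that promotes cell death, was also higher in SIRMu-1 (3.42 ± 0.23, edgeR adjusted p = 4.64e-07). Fdxr, a mitochondrial reductase (-1.94 ± 0.21, edgeR adjusted p = 1.33e-05), and Ddb2, a DNA damage sensor (-1.67 ± 0.34, edgeR adjusted p = 0.00102), were higher in rMC-1. The lines did not overlap for any of these 5 genes, and the primary cultures averaged 1177 CPM for Cdkn1a.

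Fam111a, a protease known as a host factor that SV40 large T binds, had the second largest fitted difference towards rMC-1, after Celsr2, among genes with a mean log2 CPM of at least 3 over the 8 libraries and no overlap between the lines. It stood at 22.4, 5.22, 16.9, 26.6 and 41.8 CPM in SIRMu-1 and at 2323, 2675 and 2586 CPM in rMC-1, a fitted difference of -6.81 ± 0.60 (edgeR adjusted p = 2.69e-06). The primary cultures averaged 70.0 CPM. Celsr2, a cadherin of planar cell polarity, was at 0.784 to 4.05 CPM in SIRMu-1 and 244 to 267 CPM in rMC-1 (-7.13 ± 0.74, edgeR adjusted p = 8.76e-06). That ranking gives the 5 SIRMu-1 libraries more weight than the 3 of rMC-1. With both lines weighted equally, a ranking chosen after the values were seen, 0 of the 15 leading rMC-1 genes were the same and Serpina3n came first.

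Regulators of DNA methylation and chromatin leaned to rMC-1. Of 16 tested 9 were higher in rMC-1 and 5 in SIRMu-1, or 87.5% called against 63.2% of all tested genes. Their median was -0.87. Ezh2, the methyltransferase of Polycomb complex 2, was at 29.3 to 81.4 CPM in SIRMu-1 and 266 to 285 CPM in rMC-1 (-2.04 ± 0.28, edgeR adjusted p = 7.34e-05). Dnmt1, the maintenance DNA methyltransferase, differed by -1.81 ± 0.24 and the Polycomb subunit Cbx7 by -3.57 ± 0.38. Hmga2, a chromatin factor of embryonic cells, was higher in SIRMu-1, at 7.08 to 21.8 CPM against 2.08 to 3.25 CPM (2.48 ± 0.44, edgeR adjusted p = 0.000415). Ezh2 and Dnmt1 were lowest in SIRMu-1 replicate 2, as the mitosis genes were.

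**Figure D3:**
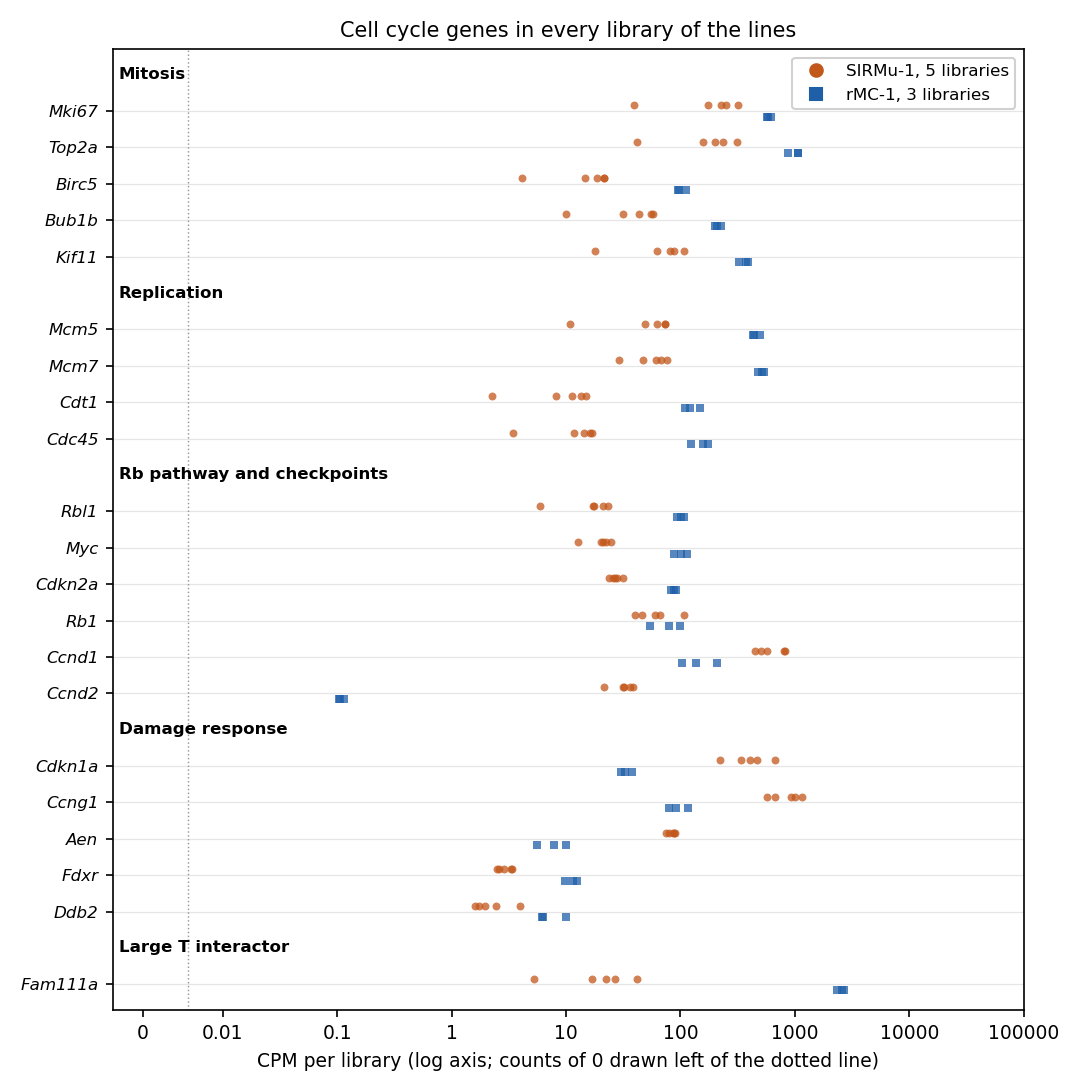
CPM in each SIRMu-1 library (circles) and each rMC-1 library (squares) for genes of mitosis, replication, the Rb pathway and checkpoints, the damage response and for Fam111a, on a log axis. Mitosis and replication genes are higher in every rMC-1 library with SIRMu-1 replicate 2 lowest, and Cdkn1a, Ccng1 and Aen are higher in every SIRMu-1 library.

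Interferon-stimulated genes, the antiviral programme that type I interferon switches on, were higher in rMC-1. Of 32 tested members 26 were higher in rMC-1 and 1 in SIRMu-1, or 84.4% called against 63.2% of all tested genes. Their median log2 fold change was -1.90. Their median level was 2.77 to 6.47 CPM in the SIRMu-1 libraries and 19.4 to 19.9 CPM in the rMC-1 libraries. Bst2, tetherin, which holds virus particles at the cell surface, stood at 0, 0, 0, 0.0987 and 0.0749 CPM in SIRMu-1 and at 63.7, 61.7 and 62.7 CPM in rMC-1 (edgeR adjusted p = 3.94e-08). Oasl, an oligoadenylate synthetase-like sensor, had no count in SIRMu-1 and 4.18 to 6.32 CPM in rMC-1, at least 226-fold higher. Ifit1, which binds viral RNA caps, had no count against 2.69 to 4.79 CPM, at least 158-fold higher. Rsad2, viperin, had no count against 1.45 to 2.00 CPM, at least 81.7-fold higher. These 4 genes are low in the primary cultures too, at 0.113 to 0.355 CPM on average. The median level of the whole list there was 9.82, 15.3, 5.88 and 9.43 CPM, below every rMC-1 library and in most cultures above every SIRMu-1 library.

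The promoters of Bst2 (chr16:18254918-18255217, - strand) and Rsad2 (chr6:48788071-48788370, - strand) are shown for the interferon-stimulated response element, searched on both strands as GAAA followed after any 2 bases by a further GAAA, and marked in capitals. They come from the same RefSeq table and window as above.
Bst2: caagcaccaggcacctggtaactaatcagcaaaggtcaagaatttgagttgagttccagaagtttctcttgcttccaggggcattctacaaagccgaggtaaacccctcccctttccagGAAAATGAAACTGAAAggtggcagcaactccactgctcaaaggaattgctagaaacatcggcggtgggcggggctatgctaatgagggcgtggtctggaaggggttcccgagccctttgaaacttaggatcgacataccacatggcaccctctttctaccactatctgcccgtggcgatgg
Rsad2: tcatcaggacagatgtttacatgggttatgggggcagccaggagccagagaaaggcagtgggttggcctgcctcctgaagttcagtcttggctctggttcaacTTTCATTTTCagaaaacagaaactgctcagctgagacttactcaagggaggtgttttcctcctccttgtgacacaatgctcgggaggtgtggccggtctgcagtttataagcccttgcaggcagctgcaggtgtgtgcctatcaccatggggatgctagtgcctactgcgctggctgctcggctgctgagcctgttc

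Bst2 held overlapping matches that begin at -131 and -125, and Rsad2 held a match on the opposite strand that begins at -147. The element was found in 13 of 23 interferon-stimulated genes with a promoter (56.5%) and in 8 of 17 antigen processing genes (47.1%), against 2.75% of 8580 tested genes, and in no replication or mitosis gene. Interferon-stimulated genes with the element had a median log2 fold change of -1.96, with 11 of 13 higher in rMC-1, and those without it of -1.58, with 9 of 10 higher in rMC-1.

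Sensors upstream of interferon differed as well. Of 15 tested members 8 were higher in rMC-1 and 5 in SIRMu-1, or 86.7% called against 63.2% of all tested genes. Their median was -0.60. Tlr3, the endosomal receptor for double-stranded RNA, was at 0 to 0.0749 CPM in SIRMu-1 and 3.19 to 3.91 CPM in rMC-1 (-6.45 ± 0.59, edgeR adjusted p = 3.78e-06). Tmem173, the STING adaptor of DNA sensing, was at 1.38 to 2.32 CPM against 12.8 to 14.7 CPM (-2.93 ± 0.44, edgeR adjusted p = 0.000119). Ifih1, the cytosolic RNA sensor MDA5, differed by -1.88 ± 0.21 (edgeR adjusted p = 1.7e-05). Mavs, the adaptor that Ifih1 signals through, was higher in SIRMu-1 by 0.67 ± 0.15 (edgeR adjusted p = 0.00217; 0.2 with libraries scaled by totals).

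Antigen processing genes, several of them inducible by interferon, were also higher in rMC-1. Of 20 tested members 14 were higher in rMC-1 and 4 in SIRMu-1, or 90% called against 63.2% of all tested genes. Their median was -1.54. The immunoproteasome subunit Psmb8 was at 0 to 0.107 CPM in SIRMu-1 and 9.64 to 14.1 CPM in rMC-1 (-7.25 ± 0.48, edgeR adjusted p = 3.8e-07), and its partner Psmb9 at 0.661 to 1.69 CPM against 25.0 to 30.7 CPM (-4.91 ± 0.34, edgeR adjusted p = 5.29e-07). RT1-A2, a rat class I molecule, was at 11.5 to 24 CPM against 125 to 150 CPM (-2.78 ± 0.25, edgeR adjusted p = 3.37e-06). Class I genes are near copies of each other, so counts of RT1-A2 are uncertain. B2m, the invariant class I light chain, was not past the test, at 385 ± 53.1 CPM (SD, n = 5) and 455 ± 32.8 CPM (SD, n = 3; edgeR adjusted p = 0.123).

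Cytokines had no common direction. Of 19 tested inflammatory mediators 5 were higher in SIRMu-1 and 6 in rMC-1, or 57.9% called against 63.2% of all tested genes. These 11 calls became 7 without rMC-1 replicate 1 and 5 with libraries of a code summed. Il33, an alarmin of Müller cells and other barrier cells, stood at 0.142, 0, 0.0413, 0.0329 and 0.674 CPM in SIRMu-1 and at 241, 318 and 230 CPM in rMC-1 (edgeR adjusted p = 1.38e-05). Cxcl10, an interferon-inducible chemokine, was at 0 to 0.285 CPM against 22.1 to 24.7 CPM (edgeR adjusted p = 2e-05), and Cxcl1, which recruits neutrophils, at 2.42 to 4.69 CPM against 42.3 to 63.4 CPM (-3.99 ± 0.33, edgeR adjusted p = 1.68e-06). Il6 was the reverse, at 30.9, 15.5, 5.78, 7.60 and 3.75 CPM in SIRMu-1 and 0.0527 to 0.165 CPM in rMC-1 (edgeR adjusted p = 0.000337). The primary cultures averaged 23.3 CPM of Il33 and 44.4 CPM of Il6.

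**Figure D4:**
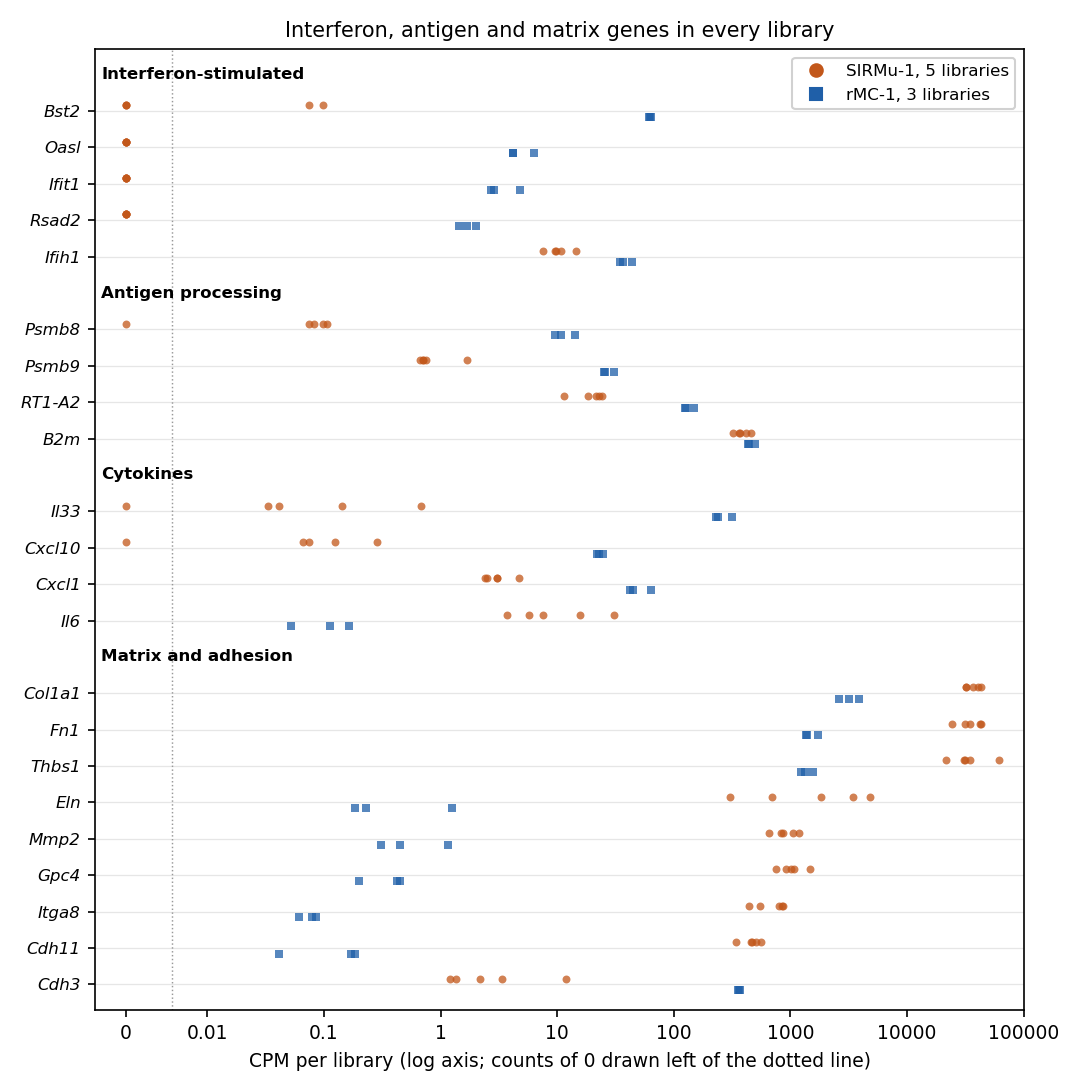
CPM in each SIRMu-1 library (circles) and each rMC-1 library (squares) for interferon-stimulated, antigen processing, cytokine, matrix and adhesion genes, on a log axis with counts of 0 drawn at the left. Bst2, Oasl, Ifit1 and Rsad2 are at or near 0 in SIRMu-1, B2m overlaps, and the matrix genes other than the cadherin Cdh3 are higher in every SIRMu-1 library.

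Genes of the extracellular matrix, the scaffold that fibroblasts and cultured glia lay down, were higher in SIRMu-1. All 24 interstitial matrix genes with a row were tested, and 19 were higher in SIRMu-1 and 1 in rMC-1. That is 83.3% called against 63.2% of all tested genes, with a median log2 fold change of 3.02. Their summed level was 101700 to 141900 CPM in SIRMu-1 and 8746 to 11450 CPM in rMC-1. Col1a1, the main chain of fibrillar collagen, stood at 31722, 31718, 36427, 43150 and 40700 CPM in SIRMu-1 and at 3875, 3183 and 2583 CPM in rMC-1 (3.52 ± 0.46, edgeR adjusted p = 4.96e-05). Fn1, fibronectin, was at 24304 to 43064 CPM against 1352 to 1734 CPM (4.56 ± 0.31, edgeR adjusted p = 4.61e-07). Thbs1, thrombospondin, was at 21550 to 61102 CPM against 1220 to 1564 CPM (4.70 ± 0.38, edgeR adjusted p = 1.39e-06). Eln, elastin, was the most variable, at 304, 1843, 696, 3453 and 4840 CPM against 0.228, 1.26 and 0.184 CPM (edgeR adjusted p = 0.000161). None of these overlapped between the lines.

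Genes that anchor to and remodel the matrix went with it. Of 14 tested integrins, the receptors for matrix, 10 were higher in SIRMu-1 and 1 in rMC-1, with a median of 2.62. Their share called was 78.6%, against 63.2% of all tested genes. Itga8, a fibronectin receptor chain of mesenchyme, stood at 841, 442, 791, 860 and 546 CPM in SIRMu-1 and at 0.0855, 0.0618 and 0.079 CPM in rMC-1 (13.12 ± 0.90, edgeR adjusted p = 4.64e-07). Itga4, which also binds fibronectin, was at 27.3 to 78.8 CPM against 0.185 to 0.263 CPM (7.95 ± 0.69, edgeR adjusted p = 2.45e-06). Of 25 tested proteoglycan and hyaluronan genes 13 were higher in SIRMu-1 and 1 in rMC-1, with a median of 2.38, or 1.62 with genes at 0 counts at their bound. That is 56% called against 63.2% of all tested genes. Gpc4, a cell surface heparan sulfate proteoglycan, was at 752 to 1473 CPM against 0.199 to 0.453 CPM (11.47 ± 0.49, edgeR adjusted p = 2.34e-08). Of 25 tested metalloproteinases and inhibitors 13 were higher in SIRMu-1 and 2 in rMC-1, or 60% called against 63.2%. Mmp2, a gelatinase, was at 656 to 1194 CPM against 0.309 to 1.17 CPM (edgeR adjusted p = 2.57e-07), and Timp3, an inhibitor bound to matrix, at 32.5 to 111 CPM against 0.474 to 0.712 CPM (6.73 ± 0.59, edgeR adjusted p = 2.53e-06).

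Basement membrane genes were less one-sided, with 7 of 15 tested higher in SIRMu-1 and 2 in rMC-1 and a median of 0.51. Their share called was 60%, against 63.2% of all tested genes. Col15a1, a collagen of basement membrane zones, was at 8.12 to 26.1 CPM in SIRMu-1 with no count in rMC-1, at least 677-fold higher. Lamb3, a laminin chain of epithelia, was higher in rMC-1 (-2.55 ± 0.66, edgeR adjusted p = 0.0054).

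Cadherins, which join cells to one another, and their catenins differed in both directions. Of 18 tested 6 were higher in SIRMu-1 and 4 in rMC-1. The share called was 55.6% against 63.2% of all tested genes, a difference that was not tested. Cdh11, the cadherin of mesenchyme, stood at 502, 559, 461, 468 and 342 CPM in SIRMu-1 and at 0.171, 0.0412 and 0.184 CPM in rMC-1 (11.81 ± 0.58, edgeR adjusted p = 4.72e-08), and the protocadherin Pcdh7 at 231 to 300 CPM against 0.0412 to 0.105 CPM (11.71 ± 0.43, edgeR adjusted p = 1.16e-08). Cdh3, P-cadherin, was at 1.21, 3.34, 1.36, 2.17 and 11.8 CPM in SIRMu-1 and at 359, 372 and 356 CPM in rMC-1, a fitted difference of -6.51 ± 0.74 that became -7.56 without SIRMu-1 replicate 5 (edgeR adjusted p = 1.65e-05). The neural cadherin Cdh2 and the epithelial cadherin Cdh1 were not past the test.

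Contractile and pericyte genes were higher in SIRMu-1, with 9 of 14 tested in that direction, 1 in the other and a median of 2.70. Their share called was 71.4%, against 63.2% of all tested genes. Acta2, smooth muscle actin, was at 4203 to 10129 CPM against 842 to 2812 CPM (2.18 ± 0.42, edgeR adjusted p = 0.000762). Cnn1, calponin, was at 241, 257, 308, 375 and 82.9 CPM against 0.33 to 0.57 CPM (9.12 ± 0.76, edgeR adjusted p = 1.86e-06). Cspg4, the NG2 proteoglycan of pericytes, was at 149 to 427 CPM against 0.158 to 0.33 CPM (10.21 ± 1.36, edgeR adjusted p = 5.39e-05). Epithelial keratin Krt8 was higher in rMC-1, at 46.8 to 84.4 CPM against 8.54 to 21.2 CPM (-2.29 ± 0.41, edgeR adjusted p = 0.000461).

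**Figure D5:**
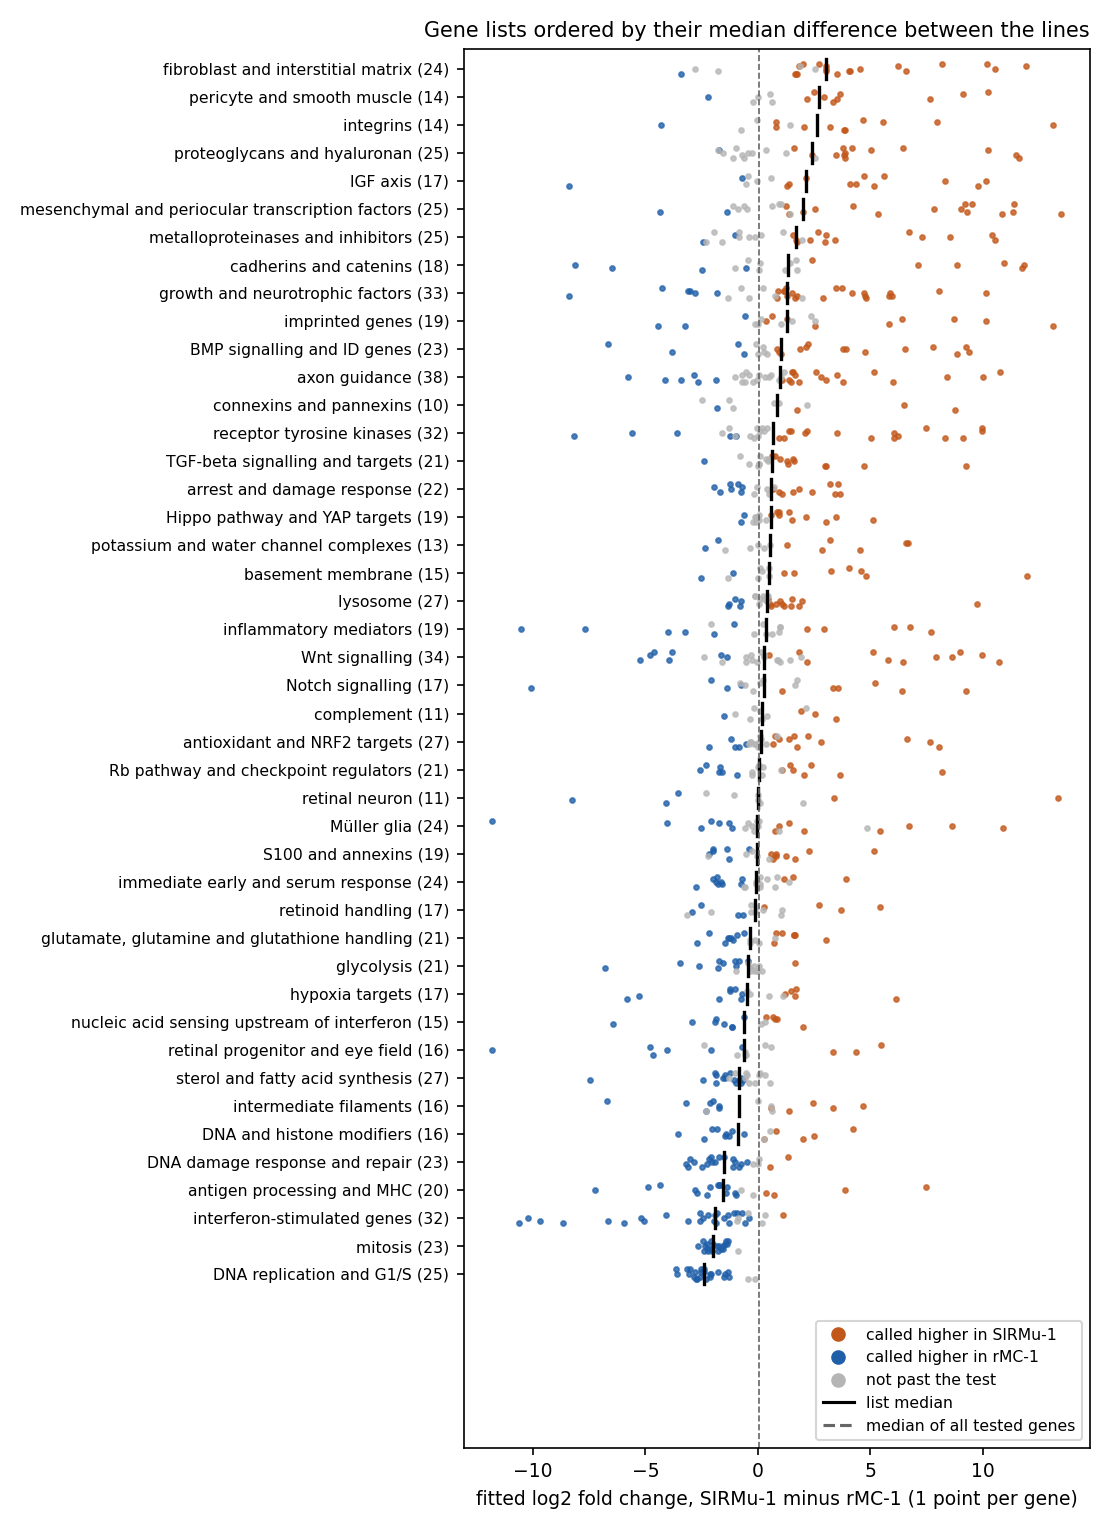
Fitted log2 fold change (SIRMu-1 minus rMC-1, horizontal) of each tested gene in the gene lists with at least 10 tested genes, with the list median as a black bar, the number tested in brackets and the median of all tested genes as a dashed line. Interstitial matrix lies at the top with a median of 3.02, and mitosis and replication genes lie at the bottom with medians of -2.01 and -2.40. HOX genes are not drawn, since most of those tested had no count in a line. The list drawn as arrest and damage response is that of the p53 targets.

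Secreted growth factors were more often higher in SIRMu-1. Of 33 tested growth and neurotrophic factors 21 were higher in SIRMu-1 and 6 in rMC-1, with a median log2 fold change of 1.31. Their share called was 81.8%, against 63.2% of all tested genes. Vegfa, the angiogenic factor that Müller cells release in hypoxia, was at 196 to 792 CPM against 91.8 to 161 CPM (1.66 ± 0.40, edgeR adjusted p = 0.00344). Fgf7, a mesenchymal growth factor for epithelia, was at 52.9 to 85.4 CPM against 0.816 to 1.46 CPM (5.95 ± 0.70, edgeR adjusted p = 2.14e-05). Kitlg, stem cell factor, was higher in rMC-1 (-3.04 ± 0.44, edgeR adjusted p = 0.000102), as was its receptor Kit, which had no count in SIRMu-1 and 0.606 to 1.71 CPM in rMC-1. Of 32 tested receptor tyrosine kinases 16 were higher in SIRMu-1 and 5 in rMC-1, or 65.6% called against 63.2% of all tested genes. Pdgfrb, a receptor of platelet-derived growth factors found on pericytes, was at 734 to 1176 CPM against 68.8 to 118 CPM (3.53 ± 0.38, edgeR adjusted p = 1.26e-05). Erbb3, a neuregulin receptor, was higher in rMC-1 (-3.59 ± 0.81, edgeR adjusted p = 0.00223), and its relative Erbb4 was at 2.36 to 8.02 CPM in SIRMu-1 with no count in rMC-1.

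The insulin-like growth factor axis, which includes several imprinted genes, was largely on the SIRMu-1 side. Of 17 tested members 11 were higher in SIRMu-1 and 2 in rMC-1, or 76.5% called against 63.2% of all tested genes. Their median was 2.13. The ligands were exchanged: Igf2 was at 0.605, 19.5, 0.33, 6.48 and 43.0 CPM in SIRMu-1 with 1 count in all of rMC-1 (edgeR adjusted p = 0.00292), and Igf1 had 3 counts in all of SIRMu-1 and stood at 3.73, 16.1 and 5.95 CPM in rMC-1 (edgeR adjusted p = 4.26e-05). Igf2 varied widely among the SIRMu-1 libraries but did not overlap with rMC-1. Pappa, a protease that frees the ligands from their binding proteins, was at 23.5 to 122 CPM against 0.0263 to 0.0855 CPM (9.79 ± 0.81, edgeR adjusted p = 1.69e-06). Of 19 tested imprinted genes 9 were higher in SIRMu-1 and 3 in rMC-1, or 63.2% called, the same share as of all tested genes. Grb10, an imprinted adaptor that restrains insulin receptor signalling, was the steadiest, at 624, 632, 596, 652 and 611 CPM against 8 counts in all of rMC-1 (edgeR adjusted p = 1.16e-08). Peg3, a paternally expressed zinc finger gene, was at 18.0 to 31.4 CPM against 0.0412 to 0.057 CPM (8.73 ± 0.35, edgeR adjusted p = 1.81e-08).

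Genes of the TGF-beta family that were called were mostly higher in SIRMu-1. Of 21 tested genes of TGF-beta signalling 11 were higher in SIRMu-1 and 1 in rMC-1, the median was 0.62, and 9 were not past the test. The share called was 57.1%, against 63.2% of all tested genes. Tgfb3, a ligand, was at 1063 to 2244 CPM against 172 to 203 CPM (2.98 ± 0.28, edgeR adjusted p = 4.37e-06). Ltbp2, a protein of the latent TGF-beta binding family, was at 5574, 8280, 5659, 4651 and 1726 CPM against 10.1, 8.86 and 6.95 CPM (9.23 ± 0.60, edgeR adjusted p = 3.41e-07). Ctgf, a matricellular target, was at 3103 to 13791 CPM against 809 to 1211 CPM (3.01 ± 0.41, edgeR adjusted p = 6.92e-05). The gene higher in rMC-1 was Fst, follistatin, an activin antagonist, at 1.64 to 8.61 CPM against 25.8 to 36.7 CPM (-2.38 ± 0.62, edgeR adjusted p = 0.00547; 0.0641 with libraries of a code summed). Of 23 tested genes of BMP signalling 14 were higher in SIRMu-1 and 4 in rMC-1, or 78.3% called. Bmp4 was higher in SIRMu-1 (1.87 ± 0.31, edgeR adjusted p = 0.000282) and Bmp2 in rMC-1 (-3.84 ± 0.66, edgeR adjusted p = 0.000357), while the BMP antagonist Nog was at 6.07 to 62.3 CPM in SIRMu-1 and 0.0285 to 0.0527 CPM in rMC-1 (9.27 ± 1.39, edgeR adjusted p = 0.00013).

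Notch and Wnt genes had no common direction, and the sign of both medians turned when libraries were scaled by totals (Notch 0.25 to -0.20, Wnt 0.28 to -0.15). Of 17 tested Notch genes 6 were higher in SIRMu-1 and 4 in rMC-1, or 58.8% called against 63.2% of all tested genes. The receptor Notch1, which keeps progenitors from differentiating, was at 14.8, 10.1, 17.3, 34.0 and 50.5 CPM against 114, 107 and 97.8 CPM (-2.07 ± 0.43, edgeR adjusted p = 0.00141). Its ligand Jag1 was at 1003 to 1806 CPM against 101 to 120 CPM (3.54 ± 0.31, edgeR adjusted p = 2.85e-06), and the ligand Dll1 had 1 count in SIRMu-1 and stood at 10.9 to 13.3 CPM in rMC-1 (edgeR adjusted p = 9.36e-05). Among the targets Hey1 was higher in SIRMu-1 (5.18 ± 0.56, edgeR adjusted p = 1.15e-05) and Hes1 was not past the test. Of 34 tested Wnt genes 11 were higher in SIRMu-1 and 7 in rMC-1, or 52.9% called against 63.2%. Wnt5a, a ligand of the beta-catenin-independent branch, was at 24.7 to 56.9 CPM against 2 counts in all of rMC-1 (edgeR adjusted p = 8.67e-07).

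Lipid synthesis and glycolysis genes that were called were nearly all higher in rMC-1. All 27 listed genes of sterol and fatty acid synthesis were tested, 16 were higher in rMC-1 and none in SIRMu-1, with a median of -0.85. That is 59.3% called against 63.2% of all tested genes. Srebf2, the regulator of cholesterol synthesis, was at 87.8 to 228 CPM in SIRMu-1 and 485 to 508 CPM in rMC-1 (-1.87 ± 0.27, edgeR adjusted p = 8.62e-05). Scd1, a fatty acid desaturase, stood at 0.498, 0.409, 0.743, 0.56 and 5.47 CPM against 282, 285 and 247 CPM (edgeR adjusted p = 1.38e-05). The cultures differed in serum, a source of sterol and lipid, by the same grouping, and its part cannot be told apart. Of 21 tested glycolysis genes 10 were higher in rMC-1 and 1 in SIRMu-1, or 52.4% called against 63.2%. Slc2a1, the glucose transporter GLUT1, was at 42.6 to 62.5 CPM against 170 to 204 CPM (-1.74 ± 0.24, edgeR adjusted p = 7.25e-05), and Aldoc, the brain aldolase, at 0.0315 to 0.337 CPM against 14.4 to 32.9 CPM (-6.79 ± 0.77, edgeR adjusted p = 1.76e-05). Ldhb, a lactate dehydrogenase chain, was the 1 gene higher in SIRMu-1 (1.65 ± 0.18, edgeR adjusted p = 1.58e-05).

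Glutamate handling, lysosome and stress genes were mixed. Of 21 tested genes of glutamate, glutamine and glutathione handling 7 were higher in SIRMu-1 and 9 in rMC-1, or 76.2% called. Slc7a11, which imports cystine in exchange for glutamate, was at 20.0 to 61.5 CPM against 101 to 252 CPM (-2.16 ± 0.37, edgeR adjusted p = 0.000327), and the glutamine transporter Slc38a1 at 8.46 to 20.8 CPM against 80.5 to 89.2 CPM (-2.71 ± 0.55, edgeR adjusted p = 0.00106). Of 27 tested lysosome genes 13 were higher in SIRMu-1 and 5 in rMC-1, or 66.7% called against 63.2% of all tested genes. Ctsz, cathepsin Z, was at 45.2 to 67.1 CPM against 8 counts in all of rMC-1 (9.74 ± 0.42, edgeR adjusted p = 2.34e-08). Of 27 tested antioxidant genes 11 were higher in SIRMu-1 and 5 in rMC-1, and of 17 tested hypoxia targets 5 and 8. Their shares called were 59.3% and 76.5%. The medians of the lysosome and antioxidant lists changed sign under scaling by library totals, from 0.42 to -0.02 and from 0.15 to -0.31.

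Summed levels of markers of other cell types that a retinal culture could hold ranged widely. The summed level of the photoreceptor markers was 6.33 to 8.25 CPM in SIRMu-1 and 5.29 to 8.98 CPM in rMC-1, and that of microglia and macrophages 1.42 to 4.88 CPM and 2.66 to 4.33 CPM. Retinal neuron markers summed to 138.5 to 541.4 CPM in SIRMu-1 and 137.6 to 188.1 CPM in rMC-1, with 2 of 11 tested higher in SIRMu-1 and 3 in rMC-1. Astrocyte markers summed to 527.3 to 900.2 CPM and 414.4 to 467.5 CPM, and Schwann cell and neural crest markers to 213.3 to 306.6 CPM and 102.6 to 115.7 CPM. These sums lean on single genes: Gja1 alone was at 424 to 734 CPM in SIRMu-1 and 160 to 217 CPM in rMC-1. Of 6 tested astrocyte markers 2 were higher in SIRMu-1 and 2 in rMC-1, with a median log2 fold change of -0.63. Of 7 tested Schwann cell and neural crest markers 3 were higher in SIRMu-1 and 3 in rMC-1, with a median of -1.15. The shares called were 45.5% for retinal neuron, 66.7% for astrocyte and 85.7% for Schwann cell markers, against 63.2% of all tested genes. Pigment epithelium markers summed to 2.70 to 4.98 CPM and 12.1 to 13.8 CPM. Epithelial markers summed to 13.3 to 24.9 CPM in SIRMu-1 and 67.2 to 110 CPM in rMC-1. Of 6 tested 4 were higher in rMC-1 and 1 in SIRMu-1, or 83.3% called. Epcam, a defining epithelial marker, had 1 count in each line. Endothelial markers summed to 192 to 469 CPM in SIRMu-1 and 11.2 to 17.8 CPM in rMC-1. Of 7 tested 4 were higher in SIRMu-1 and none in rMC-1, or 57.1% called. Most of the SIRMu-1 sum was Flt1, at 144.5 to 424.1 CPM. The median of the tested endothelial markers was 1.03 to 5.38 CPM in SIRMu-1 and 0.33 to 0.769 CPM in rMC-1. Pecam1, a defining endothelial marker, was at 0.533, 5.38, 0.413, 0.362 and 0.45 CPM in SIRMu-1 and 0.0206 to 0.0527 CPM in rMC-1. Pericyte markers summed to 8482 to 20260 CPM and 1722 to 3952 CPM. The part of other cell types in the differences between the lines was not tested.

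The rMC-1 libraries were more alike than the SIRMu-1 libraries, but the 2 sets are not matched. The 3 rMC-1 cultures spanned passages 23 to 26 without drugs, the 5 SIRMu-1 cultures passages 6 to 20 with and without them. A range over 5 libraries also tends to exceed one over 3. The part of each in the difference was not tested. The root mean square difference in log2 CPM was 0.402 to 0.511 between rMC-1 libraries, 0.427 to 1.07 between SIRMu-1 libraries and 2.06 to 2.32 between the lines. Among 5057 genes with a mean log2 CPM of at least 5 in SIRMu-1, 188 spanned over 4-fold within the line, and none of 5127 did in rMC-1. Replicate 2, of passage 11, was the farthest from the line's median in 98 of the 188 genes and replicate 5, of passage 20, in 81. Without replicates 2 and 5 together, 6986 genes were called, 3260 higher in SIRMu-1 and 3726 in rMC-1. Of these, 6575 were among the 7157 called with all libraries. Cd200, a membrane protein of immune regulation, was among the widest, with a range of 5.82 on the log2 scale over the SIRMu-1 libraries.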

How the data were processed

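RNA of 5 SIRMu-1, 3 rMC-1 and 4 primary Müller cell cultures was sequenced. Per the labels' protocols, libraries were made from polyadenylated RNA with a KAPA stranded kit and read on a NextSeq500. The submitters' processing notes name build rn6 and the tools cutadapt 1.8.1, STAR 2.5.3a and edgeR 3.18.1, without their roles. The annotation and strand setting are not given in the sources here, so genes that overlap on opposite strands have uncertain counts. The authors deposited whole-number read counts per gene and library, not normalized. Reads outside genes were 24.86% to 30.27% of a line's library and reads mapping to several places 10.4% to 12.3%. Both were left out, so near-identical genes have uncertain counts. A log2 CPM table that the authors deposited was matched by edgeR's log2 CPM of the counts and was used for that check alone.

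Samples were grouped by their labels. Tests used edgeR 4.0.16 under R 4.3.3, with its expression filter, TMM factors and quasi-likelihood test. All 12 libraries entered 1 fit of 3 groups, which left 9 residual degrees of freedom. Benjamini-Hochberg adjustment ran over 11321 genes. The procedure was tested on simulated data. Intervals and floors cover counting error only. SIRMu-1 replicates 1 to 3 share a code in the file names, as do SIRMu-1 replicates 4 and 5 and rMC-1 replicates 1 and 2. What the code means is not given in the sources here.

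Genes to name were chosen by rule: the 15 largest differences in each direction, list members marked in advance or with the 4 largest differences in each direction, genes at 0 counts in a line, the widest ranges within a line and the most abundant genes. Cdx2, Sall1, Tbx1, Emx2, Cdh1, Bmp4, Hes1 and Epcam fall outside it and were chosen after their values were seen. Some genes that meet the rule are not reported here. The comparison and the gene lists were chosen with earlier results of these data known. Promoters came from RefSeq on GRCr8, matched by symbol for 8580 of the tested genes. Alternatives were other scalings, DESeq2 1.42.0, filters, subsets of libraries, summed libraries and a replicate block.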

Additional observations from a re-analysis of the deposited data

Results flagged for a closer look

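Among 107 genes and 5 gene lists examined over the 5 SIRMu-1 libraries, 11 had a library far from the other 4 by Dixon's test at the 95% level. Chance gives that in about 1 in 20 groups if values are normally distributed. The test ran on CPM without a log, where that may not hold, and the library apart was the highest in all 11. Groups of 3, as in rMC-1, were not examined. The library was SIRMu-1 replicate 5 in 5 of the 11, replicate 2 in 3, replicate 1 in 2 and replicate 4 in 1.

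In replicate 5 Scd1 stood at 5.47 CPM against 0.409 to 0.743 CPM in the others and Psmb9 at 1.69 against 0.661 to 0.757. Six3 was at 1.46 CPM against 0.107 to 0.372, Il33 at 0.674 against 0 to 0.142 and Cdh3 at 11.8 against 1.21 to 3.34. All of these genes are higher in rMC-1, and replicate 5 stayed below every rMC-1 library in each. Replicate 5 was the culture of passage 20, the highest of the line, and had both drugs. Replicate 3, of passage 11, had the same drug doses and stood at 0.743 CPM for Scd1, 0.702 for Psmb9, 0.372 for Six3, 0.0413 for Il33 and 1.36 for Cdh3. It was within the range of the 3 drug-free cultures for Psmb9, Il33 and Cdh3, above it for Scd1 and Six3, and below replicate 5 for all of them.

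In replicate 2 Erbb4 stood at 8.02 CPM against 2.36 to 3.70 CPM and Pecam1 at 5.38 against 0.362 to 0.533. The median level of the interstitial matrix list in replicate 2 was 1520 CPM against 548 to 714 CPM. Replicate 1 was the highest for Cxcl1 (4.69 CPM against 2.42 to 3.07) and Erbb3 (0.711 against 0.372 to 0.441), and replicate 4 for Cdh2 (23.7 CPM against 1.39 to 5.44).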

How the results depend on the processing

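Of 118 called genes named in the text, 114 kept their call in every setting that gave a value. The exceptions were Slc1a3, Cdkn2a and Fst with libraries of a code summed and Mavs with library totals. The number of calls was 7157 and ranged from 6249 to 7287 when 1 library was left out. The direction of the calls depended most on scaling: library totals gave 2324 and 5227 genes higher in SIRMu-1 and rMC-1, 2011 higher in rMC-1 with the 2-fold minimum, 19 called glycolysis genes and the opposite sign for 256 of the 7157 calls. DESeq2 called 7406 genes. With libraries of a code summed 5733 genes were called, and the calls were 5 among inflammatory mediators, 5 in retinoid handling, 7 in immediate early genes and 2 in complement. Leaving out 1 library gave 7 to 11 inflammatory mediators, 2 to 4 complement genes and 25 to 40 genes with 0 counts in rMC-1. With at least 1 CPM asked of the other line, genes at 0 counts were 91 and 45, and with at most 1 count allowed they were 56 and 21. A prior count of 0.25 gave mean distances of 0.65 within rMC-1 and 2.63 between the lines, against 0.44 and 2.17, and leaving out a library gave 0.40 to 0.51 within rMC-1. The medians of the Notch, Wnt, lysosome, antioxidant, and Rb and checkpoint lists changed sign with library totals, while those of the mitosis, replication, interferon, antigen, matrix and integrin lists did not. Glul, which was not called, went from 0.05 to -0.38 with library totals, -0.25 with SIRMu-1 cultures free of drugs, -0.32 with a replicate block, -0.15 without SIRMu-1 replicates 2 and 5, and -0.25 to 0.16 with 1 library left out. Cdh2, not called, ranged from -0.09 to 3.25 with 1 library left out, and Cdh1 went to -0.70 without SIRMu-1 replicates 2 and 5. The setting without replicates 2 and 5 was chosen after seeing the data. The causes of these changes were not tested.

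Replicate numbers did not pair the samples: deviations of same-numbered libraries correlated at 0.014, 0.07 and 0.006. With the replicate block 7157 genes were called, 3677 higher in SIRMu-1 and 3480 in rMC-1, and 6731 were shared with the fit without it. Genes near 0 counts in a line are limited by depth: of 24 named genes whose fold moved over 1.5 times without a library, 20 were under 1 CPM in a line. The others were Cdh3 (-6.51 to -7.56), Celsr2 (-7.13 to -7.73) and Scd1 (-7.48 to -9.03) without SIRMu-1 replicate 5, and Sox11 (4.37 to 5.74) without rMC-1 replicate 1.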
